A study of Mus musculus with 6 samples.

Results

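A group of 997 narrow H3K56ac peaks was selected on width alone, as all intervals of at most 320 bp among the 11106 merged peaks of the dataset (8.98%). They were divided at 240 bp into the 357 narrowest peaks and 640 peaks of more than 240 and up to 320 bp. The latter are called narrow peaks over 240 bp. Because width chose them, their widths of 113 to 320 bp (median 261 bp) are given as a description. They held 249.8 kb, or 1.73% of the summed width of all peaks. The remaining 10109 wider peaks comprised 2461 of up to 640 bp and 7648 over 640 bp.

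The peaks came from ChIP-seq of a line of mouse embryonic stem cells, V6.5, grown on feeder cells in medium with LIF. Cells had been infected with lentivirus for a scrambled shRNA, the Scramble group, or for a *Sirt6* shRNA, the *Sirt6* KD group, so the controls carried a lentiviral shRNA as well. Each group had 2 H3K56ac ChIP libraries and 1 input DNA library, 6 in all, but the positions were deposited as 1 merged set that does not tell which library or group gave a peak. The score was 0 for every peak, the positions carry no read counts and the depth of the libraries was not used here, so no peak height and no change after *Sirt6* KD is described.

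H3K56ac is acetylation of lysine 56 in the core of histone H3, near the site where DNA enters and leaves the nucleosome. The mark is placed on newly made histones and is also found at active promoters and enhancers in mammalian cells. SIRT6, an NAD-dependent deacetylase of the sirtuin family, removes acetyl groups from histone H3, lysine 56 included.

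The narrowest peaks often lay in repeated DNA, and many were near-copies of each other. The following members of the largest group of like sequence are shown because they carry this pattern. They are printed 5′ to 3′ in the GRCm38 reference, on the strand in parentheses, and in the first one capitals mark the 183 bases, from base 37 to base 219, that aligned with all 3 others. In the others capitals mark the bases aligned to the first.
chr16:75078520-75078752 (+): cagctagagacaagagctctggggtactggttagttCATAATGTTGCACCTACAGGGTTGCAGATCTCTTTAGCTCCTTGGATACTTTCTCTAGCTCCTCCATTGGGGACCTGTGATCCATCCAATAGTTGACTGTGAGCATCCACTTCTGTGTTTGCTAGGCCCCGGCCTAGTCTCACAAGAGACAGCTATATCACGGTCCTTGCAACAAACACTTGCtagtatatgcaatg
chr14:56447965-56448163 (+): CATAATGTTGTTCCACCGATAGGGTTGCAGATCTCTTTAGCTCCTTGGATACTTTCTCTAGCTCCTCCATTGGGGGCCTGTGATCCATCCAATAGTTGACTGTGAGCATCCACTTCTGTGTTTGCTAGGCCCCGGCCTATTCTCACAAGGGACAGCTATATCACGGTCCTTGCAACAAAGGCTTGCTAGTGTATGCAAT
chr17:55543515-55543733 (-): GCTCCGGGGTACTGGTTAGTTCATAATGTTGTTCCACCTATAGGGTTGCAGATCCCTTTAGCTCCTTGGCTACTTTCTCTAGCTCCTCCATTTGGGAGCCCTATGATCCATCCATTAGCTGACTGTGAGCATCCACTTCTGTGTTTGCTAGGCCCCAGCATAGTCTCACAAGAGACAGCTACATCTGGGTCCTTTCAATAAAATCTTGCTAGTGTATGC
chr7:53253666-53253865 (+): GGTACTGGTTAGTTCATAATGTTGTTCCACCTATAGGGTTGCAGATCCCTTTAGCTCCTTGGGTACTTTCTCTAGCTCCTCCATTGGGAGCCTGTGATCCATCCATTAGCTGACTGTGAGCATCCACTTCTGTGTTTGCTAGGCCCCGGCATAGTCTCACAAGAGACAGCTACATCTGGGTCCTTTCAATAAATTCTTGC
The second sequence was 94.5% identical to the first over 199 aligned positions, the third 89.5% over 219 and the last 91.0% over 200. All 4 intervals were masked as repeats over 100% of their bases. The first was intergenic and 489046 bp from the nearest transcription start site (TSS) of a protein-coding gene, that of *Lipi*. The second lay in *Rnf17*, 2509 bp from its TSS, the third was intergenic with *Vmn2r118* nearest, and the last was intergenic with *1700015G11Rik* nearest.

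A smaller and GC-rich group is shown because 9 of its 10 members hold the letters AAGATGGCG within 300 bp around the midpoint, the core bound by the factor YY1, in capitals here. The search covered both strands, and the letters stood in 2 places in each of the 3 sequences. The same letters were also held by 4 of 20 members of another group of like sequence and by 2 of 2 in a smaller one.
chr14:56998088-56998378 (+): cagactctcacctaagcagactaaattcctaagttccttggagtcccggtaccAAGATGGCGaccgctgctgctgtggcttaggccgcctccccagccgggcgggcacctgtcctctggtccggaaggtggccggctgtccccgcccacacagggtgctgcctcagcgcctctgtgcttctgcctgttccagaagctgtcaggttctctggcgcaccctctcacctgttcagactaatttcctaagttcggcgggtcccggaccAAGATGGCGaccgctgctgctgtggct
chr13:113285668-113285949 (+): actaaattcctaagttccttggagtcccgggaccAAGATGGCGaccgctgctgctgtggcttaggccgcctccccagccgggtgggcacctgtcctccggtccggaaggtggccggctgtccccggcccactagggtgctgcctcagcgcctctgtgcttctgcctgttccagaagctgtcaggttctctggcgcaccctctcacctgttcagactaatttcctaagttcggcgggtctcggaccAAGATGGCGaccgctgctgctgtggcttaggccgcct
chr11:11287813-11288102 (-): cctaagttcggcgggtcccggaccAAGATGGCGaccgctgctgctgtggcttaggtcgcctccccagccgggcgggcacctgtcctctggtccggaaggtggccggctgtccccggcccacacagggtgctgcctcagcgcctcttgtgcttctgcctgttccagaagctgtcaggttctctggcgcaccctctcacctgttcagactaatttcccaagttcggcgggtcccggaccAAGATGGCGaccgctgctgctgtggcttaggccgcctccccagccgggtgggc
The second sequence was 97.4% identical to the first over 273 aligned positions and the third 96.6% over 266. The first was intergenic with *Zmym2* nearest, the second intergenic with *BC067074* nearest, and the third was in an intron of *Zpbp*.

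Other narrow peaks, 764 of the 997, had less than 50% of their bases masked as repeats. The peak in an intron of *Utrn*, which encodes the dystrophin-related protein utrophin, was 185 bp wide and 8937 bp downstream of the nearest *Utrn* TSS. Capitals mark its repeat-masked bases, 10.8% of the interval.
chr10:12852706-12852890 (+): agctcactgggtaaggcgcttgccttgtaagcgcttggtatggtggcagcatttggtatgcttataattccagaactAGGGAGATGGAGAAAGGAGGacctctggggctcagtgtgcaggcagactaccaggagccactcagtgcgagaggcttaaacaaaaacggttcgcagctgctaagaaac
The next wider peak was 155376 bp away, and no stretch of 75 bases of this interval was found elsewhere in the genome. The 3 further distal peaks that follow, also without such a stretch, are shown because a motif lay near their centre, marked in capitals. They were chosen among narrow peaks over 240 bp with less than 50% of the bases masked.
AP-1 letters, chr13:69513006-69513293 (+): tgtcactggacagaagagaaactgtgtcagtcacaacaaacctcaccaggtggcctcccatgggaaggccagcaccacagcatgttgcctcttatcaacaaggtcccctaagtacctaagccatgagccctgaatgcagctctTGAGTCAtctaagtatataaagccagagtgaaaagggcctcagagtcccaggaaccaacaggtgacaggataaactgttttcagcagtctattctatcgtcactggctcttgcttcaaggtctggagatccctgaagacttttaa
octamer letters, chr8:111144748-111145009 (+): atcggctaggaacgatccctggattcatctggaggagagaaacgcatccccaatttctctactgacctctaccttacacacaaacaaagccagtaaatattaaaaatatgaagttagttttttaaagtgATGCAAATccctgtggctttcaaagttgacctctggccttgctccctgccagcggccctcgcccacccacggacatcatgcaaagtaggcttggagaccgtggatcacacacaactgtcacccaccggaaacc
ESRRB letters, chr15:80366479-80366752 (+): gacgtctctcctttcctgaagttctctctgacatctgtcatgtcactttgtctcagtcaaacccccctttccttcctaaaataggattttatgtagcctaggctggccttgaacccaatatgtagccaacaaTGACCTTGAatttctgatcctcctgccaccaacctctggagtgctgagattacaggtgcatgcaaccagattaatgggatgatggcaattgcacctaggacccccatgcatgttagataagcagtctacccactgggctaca
They lay in introns of *Tent4a* and *Cacna1i* and, for the octamer, in an intergenic region with *Glg1* nearest. Their repeat-masked shares were 0% for the AP-1, 18.7% for the octamer and 36.9% for the ESRRB example. Which of their bases were masked is not marked here.

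Repeat content differed between the narrowest peaks and the narrow peaks over 240 bp. In the reference 36.4% of the sequenced bases of the chromosomes are soft-masked as repeats or low-complexity sequence. At least 50% of the bases were masked in 164 of the 357 peaks up to 240 bp (45.9%) and in 69 of the 640 peaks over 240 bp (10.8%). The difference was 35.2 percentage points (95% confidence interval 29.4 to 40.8; Fisher's exact test, two-sided, adjusted p = 6.81e-35). In promoter peaks alone the shares were 5.77% and 0.629%. Among the wider peaks the share was 1.68% (170 of 10109), against 23.4% in all narrow peaks (exact test, adjusted p = 4.07e-143). These shares depend on the length of the interval. In windows of 300 bp around the midpoint, which do not, the share was 3.37% in wider and 23.2% in all narrow peaks. Within the narrow peaks it was 45.1% up to 240 bp and 10.9% over 240 bp. Adjusted p-values here and below are Benjamini-Hochberg values over 16 tests on peaks. Peaks near each other and peaks of like sequence are not independent, which these tests and the intervals, which cover counting error only, do not take into account.

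In bins of 20 bp the share was lower in wider bins up to 280 bp. It was 9 of 10 peaks up to 140 bp, 22 of 26 at 141 to 160 bp (84.6%) and 36 of 48 at 161 to 180 bp (75%). It was 46.4% at 181 to 200 bp, 25.8% at 221 to 240 bp, 14.2% in the next 20 bp and 5.26% at 301 to 320 bp. In the 20 bp just beyond the limit it was 6.94%. Every base was masked in 141 of the narrowest peaks (39.5%) and in 39 of those over 240 bp (6.09%), and no base in 100 (28%) and 202 (31.6%). The median masked share was 30.4% in the narrowest peaks and 8.63% in those over 240 bp.

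**Figure D1:**
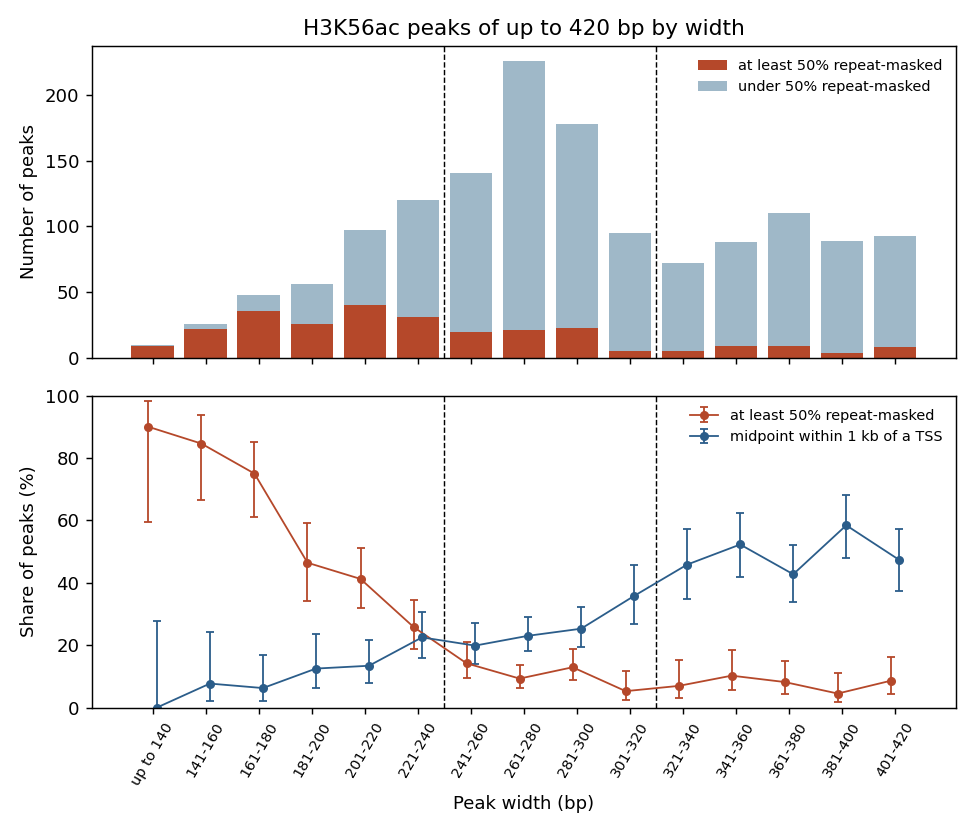
Upper panel, number of peaks (y axis) in width bins of 20 bp (x axis, bp; the first bin holds all peaks up to 140 bp), divided by repeat-masked share. Lower panel, share of peaks (%) that were at least 50% repeat-masked or had the midpoint within 1 kb of a TSS, with Wilson 95% intervals; dashed lines mark 240 and 320 bp. The masked share falls from 9 of 10 peaks to 5.26% across the narrow peaks while the promoter share rises from 0 to 35.8%.

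Most of the masked narrow peaks could be grouped by sequence. Peaks were joined into a family when they aligned with at least 80% identity over at least 100 bp, which placed 187 narrow peaks in 23 families. Of these, 135 were up to 240 bp (37.8% of that class) and 52 were over 240 bp (8.13%). The shorter an interval, the less sequence it offers for an alignment, so width itself works against the narrowest peaks in this count. Requiring 90% identity left 129 and 39 peaks in families. Families of 5 or more members numbered 15 and together held 170 peaks. Since the families were formed from these peaks, no test is given for them. Among peaks in no family, at least 50% of the bases were masked in 13.1% of those up to 240 bp. In those over 240 bp the share was 3.40%. Together these were 49 of the 233 narrow peaks with at least 50% of the bases masked. Among peaks in no family 19 were masked at every base.

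The largest family had 49 members, 42 of them up to 240 bp, on 20 chromosomes. None lay within 1 kb of a TSS, 34 were distal intergenic and 14 distal intronic. They were 2509 to 1563329 bp from the nearest TSS (median 119081 bp) and 5625 to 2760655 bp from the next wider peak (median 456282 bp). Their median GC content was 48.1%. The sequence of the representative shown first above matched 94517 places in the genome at 80% identity and 24308 at 90%, so that the 49 peaks stood for 0.0518% of these places. All 49 also resembled a wider peak, and 24 wider peaks were of this kind.

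The second family had 20 members, 16 of them up to 240 bp, and 15 were intergenic. Its representative at chr3:59517981-59518256 matched 5451 places. Another 2 families had 13 members each, with representatives at chr3:137249260-137249529 and chr3:33771254-33771538 that matched 72396 and 31830 places. They differed in base composition, with median GC contents of 45.3% and 37.7%. The family of the GC-rich sequences above had 10 members on 10 chromosomes with GC contents of 59.2 to 66.9%. Its representative matched 4439 places, and 10 wider peaks were like it. Names of repeat classes were not used here.

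A pair of families, with 6 and 5 members, had median masked shares of 66.5% and 71.3%, their typical member had no stretch of 75 bases found elsewhere, and 824 and 298 wider peaks resembled them. The larger of them held the narrow peak at the promoter of *Cyhr1*. In the other families of 5 or more members the median masked share was 100%.

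**Figure D2:**
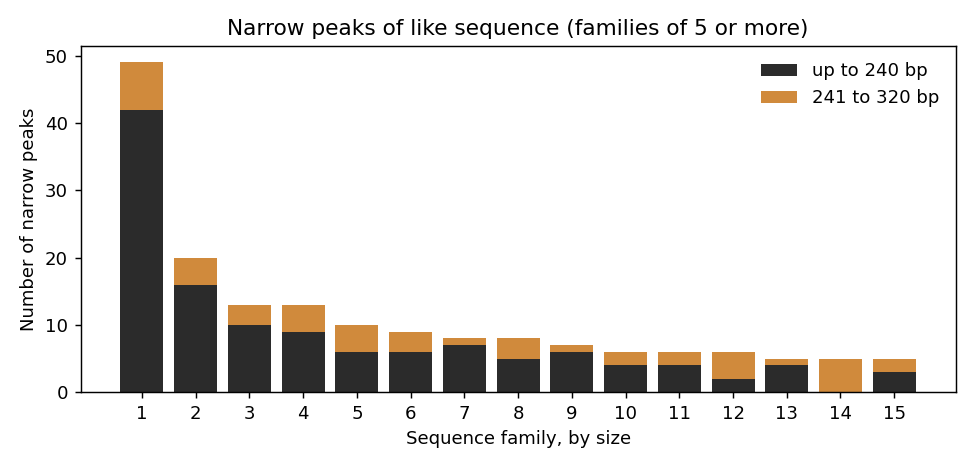
Number of narrow peaks (y axis) in each of the 15 sequence families with 5 or more members (x axis, ordered by size), divided by width. The first family has 49 members, of which 42 are up to 240 bp, and one of 5 members has none up to 240 bp.

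Repetition was also measured without alignments between peaks. A stretch of 75 bases that occurred elsewhere in the genome was found in 144 of the peaks up to 240 bp (40.3%), in 52 of those over 240 bp (8.13%) and in 135 of the wider ones of up to 640 bp (5.49%). In peaks over 640 bp, which offer more stretches each, the share was 14.1%. At least 50% of the stretches were repeated in 56 (15.7%), 32 (5.0%), 9 (0.366%) and 1 (0.0131%) of the peaks of the 4 classes. In 8 narrow peaks every stretch was repeated. The authors kept reads that aligned at a single place, and the part of this choice in the narrow peaks was not tested.

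The narrow peaks lay mostly away from promoters. Within 1 kb of a TSS were 52 of the narrowest peaks (14.6%) and 159 of those over 240 bp (24.8%), a difference of -10.3 percentage points (95% confidence interval -15.1 to -5.13; Fisher's exact test, adjusted p = 0.000182). With a limit of 500 bp the shares were 10.9% and 14.8% and the call was lost. Peaks outside protein-coding gene bodies and more than 3 kb from any protein-coding TSS (distal intergenic) numbered 178 (49.9%) and 222 (34.7%). The difference was 15.2 points (8.78 to 21.5; exact test, adjusted p = 5.18e-06). Distal intronic peaks numbered 85 (23.8%) and 181 (28.3%), a difference of -4.47 points (-9.95 to 1.29) that did not pass the test (exact test, adjusted p = 0.145). The remaining peaks were 88 at 1 to 3 kb from a TSS and 32 in exons.

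Against the wider peaks the same measures differed further. The promoter share was 21.2% in narrow and 65.9% in wider peaks (Fisher's exact test, adjusted p = 1.58e-165). The distal intergenic share was 40.1% against 15.8% (exact test, adjusted p = 2.05e-66) and the distal intronic share 26.7% against 9.63% (exact test, adjusted p = 1.83e-46). The wider peaks of up to 640 bp were intermediate, with 50.1% at promoters and 22.8% intergenic, between the narrow peaks and those over 640 bp, with 70.9% and 13.6%.

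**Figure D3:**
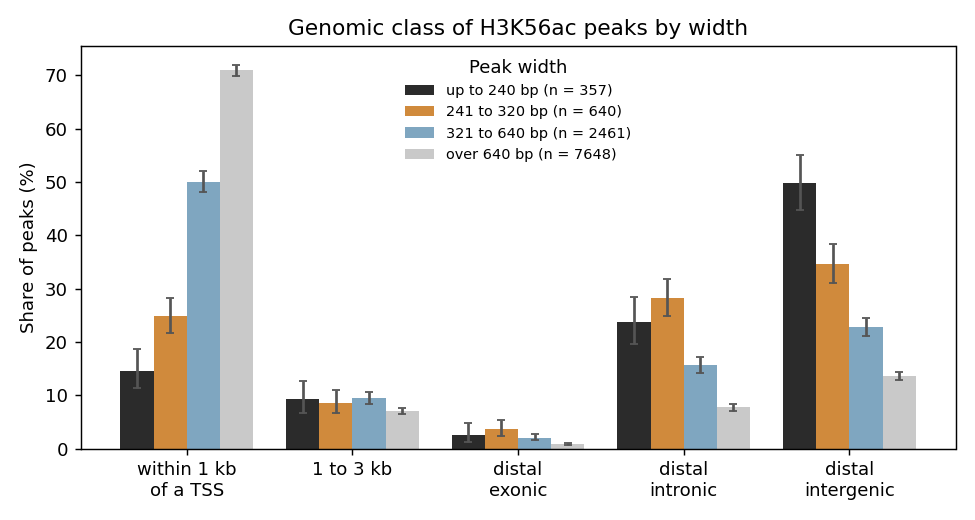
Share of peaks (y axis, %) in 5 genomic classes by distance to protein-coding TSS and gene bodies (x axis), for 4 classes of width; bars are shares and whiskers Wilson 95% intervals. The share within 1 kb of a TSS rises from 14.6% to 70.9% with width, and the distal intergenic share falls from 49.9% to 13.6%.

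Distances followed the same order. The median distance to a TSS was 19252 bp (95% interval of the median 13958 to 29597) for peaks up to 240 bp and 7971 bp (6954 to 9877) for those over 240 bp. Of the former 209 and of the latter 289 lay beyond the median of both (Fisher's exact test on these counts, adjusted p = 8.01e-05). The median was 10703 bp over all narrow peaks and 507 bp over the wider ones (exact test, adjusted p = 9.64e-133).

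The gap to the next peak over 320 bp had a median of 136945 bp (94142 to 174597) for the narrowest peaks and 43801 bp (38375 to 55986) for those over 240 bp (exact test, adjusted p = 6.9e-08). In promoter peaks alone the medians were 37766 and 35268 bp and this call was lost. A wider peak within 10 kb was found for 46 (12.9%) and 137 (21.4%) of them. Gaps over 1 Mb were found for 41 (11.5%) and 31 (4.84%). Among wider peaks the median gap to another wider peak was 21296 bp (exact test, adjusted p = 7.6e-40 against all narrow peaks). Peaks of the merged set were never closer than 1000 bp.

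These differences in place within the narrow peaks went with the sequence families. Members of a family had a median distance of 80370 bp to a TSS and of 364057 bp to the next wider peak, with 2.14% at promoters and 72.7% intergenic. Among the 810 peaks in no family the values were 7493 bp, 42567 bp, 25.6% and 32.6%. When only peaks in no family were compared, 222 up to 240 bp with 588 over 240 bp, the promoter shares were 22.1% and 26.9% and the intergenic shares 33.8% and 32.1%. The median distances were then 7647.5 and 7451.5 bp to a TSS and 52442 and 40778 bp to a wider peak. None of these 4 differences passed the test without the families, a choice made after the families had been seen.

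**Figure D4:**
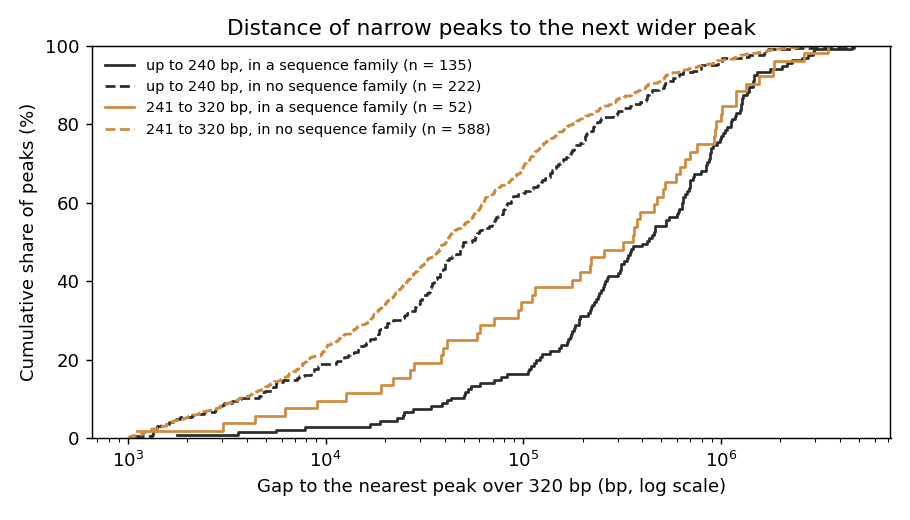
Cumulative share of narrow peaks (y axis, %) by the gap to the nearest peak over 320 bp (x axis, bp, log scale), by width (colour) and by membership in a sequence family (solid, in a family; dashed, in none). Both curves of family members lie to the right of both curves of other peaks over most of the range, with medians of 364057 bp for members and 42567 bp for the others.

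The 5 narrow peaks farthest from a wider peak were all masked at every base and intergenic. The farthest, at chr3:46462097-46462256, was 160 bp wide and 4720 kb from a wider peak, with *Pabpc4l* nearest. Of the 5, 3 were on the X chromosome, nearest to *Tex13c1*, *4930415L06Rik* and *Tmem47*. On X lay 9 of the narrowest peaks (2.52%) and 16 of those over 240 bp (2.50%), a difference that did not pass the test (0.0171 points, -1.92 to 2.42; Fisher's exact test, adjusted p = 1). Narrow peaks were on X more often than wider ones, 2.51% against 1.51% (exact test, adjusted p = 0.027), but this call was lost when 1 peak was kept per 100 kb (2.61% against 1.94%), against wider peaks of up to 640 bp alone (2.03%), for the narrowest peaks alone (2.52%) and without repeated stretches (1.87% against 1.47%). Narrow peaks made up 6.63% of all peaks on chromosome 11, 14.0% on chromosome 14 and 14.0% on X, against 8.98% of the whole set.

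Narrow peaks were poorer in GC than wider ones, with a smaller difference among themselves. The median GC content was 47.0% (46.2 to 47.6) up to 240 bp and 48.4% (47.7 to 49.0) over 240 bp (Fisher's exact test on counts above the joint median, adjusted p = 0.00678), but this call was lost with a division at 200 bp, where the medians were 47.6% and 48.0%, in distal peaks alone (45.6% and 47.1%) and without repeated stretches (47.5% and 48.4%). In promoter peaks alone it turned, by 0.00608 points. All narrow peaks had 47.9% against 51.7% in wider peaks (exact test, adjusted p = 2.76e-43). In promoter peaks the medians of narrow and wider peaks were 52.7% and 53.1%, a difference that did not pass the test. For reference, the chromosomes have 41.7%. CpG sites, where DNA methylation acts, numbered a median of 2 in the narrowest peaks, 4 in those over 240 bp and 48 over 640 bp. In windows of 300 bp around the midpoint, which do not depend on width, the median ratio of observed to expected CpG was 0.235, 0.245 and 0.549.

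Of the 211 narrow promoter peaks, 31 had the TSS inside the interval (14.7%), compared with 80.9% of the promoter peaks over 640 bp, which cover more sequence. Because width chose the peaks, this share is given as a description. It was 23.1% (12 of 52) up to 240 bp and 11.9% (19 of 159) over 240 bp. In the wider promoter peaks of up to 640 bp this share was 28.9%. The midpoint was downstream of the TSS for 134 (63.5%), against 63.7% in the wider ones of up to 640 bp. A wider peak lay within 3 kb of 25 (11.8%), against 11.7%. An observed to expected CpG ratio over 0.6 was found for 70 (33.2%), against 38.1% in the wider ones of up to 640 bp and 57.4% over 640 bp. At least 50% of bases were masked in 4 of the 211.

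Of 21938 protein-coding genes, 214 had a narrow peak within 1 kb of a TSS (percent called 0.975), and 7259 had a wider peak there (33.1%). The narrow peak was the only one for 170 genes, while 44 had both. The peak nearest to a TSS was that of *Ubxn6*, a cofactor of the segregase p97, at chr17:56074739-56074954, with its midpoint 1 bp from the TSS and a GC content of 63.9%. It was followed by *Scnm1*, *Clip1*, which encodes a microtubule plus-end binding protein, *Atp8b2*, a phospholipid flippase, and *Tbc1d25*, at 3 to 14 bp. *Hsd3b7*, an enzyme of bile acid synthesis, *Lmx1b*, a LIM homeobox factor, *Bag3*, a co-chaperone of HSP70, *Cyhr1* and *Cdc42bpa*, a kinase that binds CDC42, followed at 20 to 36 bp. Of these 10 only the peak of *Cyhr1* was mostly masked (64.3%).

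The narrow peaks richest in GC were all at promoters. They were those of *Lclat1* (69.2%), an acyltransferase that remodels cardiolipin, *Zfp1* (69.0%), *Xkr6* (67.9%), *Sik1* (67.8%), a salt-inducible kinase, and *Gtf2h2* (67.6%), a subunit of the general factor TFIIH. Their gaps to a wider peak ran from 35525 bp at *Sik1* to over 1 Mb at *Lclat1*.

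Lists of genes were read against the background of 0.975% for narrow and 33.1% for wider promoter peaks. Of 14 pluripotency genes, such as *Pou5f1* and *Nanog*, 0 had a narrow and 6 a wider promoter peak. Of 14 muscle genes 0 had a narrow and 1 a wider one, and of 14 fibroblast genes, listed because of the feeder cells, and 12 lineage transcription factors 0 had either. A count of 0 allows up to 21.4% in a list of 14 genes and 25% in one of 12. Of 7 sirtuins 7 had a wider peak, and *Sirt3*, the main mitochondrial deacetylase, also had a narrow one at chr7:140876703-140876962, 260 bp wide and 4039 bp from the next wider peak.

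Among 394 genes named Zfp, which encode zinc finger proteins, 7 had a narrow promoter peak (1.78%) and 209 a wider one (53.0%). The 7 were *Zfp790*, *Zfp473*, *Zfp1*, *Zfp3*, *Zfp708*, *Zfp738* and *Zfp273*. The last 3 lay on chromosome 13. *Zfp790* and *Zfp473* also had a wider promoter peak, and the others of the 7 had none. The peak of *Zfp473* was 156 bp wide and masked at every base. Of 102 genes named Rpl or Rps, mostly ribosomal proteins, 2 had a narrow peak, *Rps7* and *Rps19bp1*, and 73 a wider one. Among genes of mitochondria and the proteasome, *Mrpl48* was the only one of 78 Mrpl and Mrps genes, *Ndufaf6*, an assembly factor of complex I, and *Ndufb11*, one of its subunits, were 2 of 46 Nduf genes, and *Psme1*, part of the proteasome activator PA28, was 1 of 50 Psm genes. None of 39 Hox and 1135 Olfr genes had a narrow or a wider promoter peak, which allows up to 7.69% and 0.264%.

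Some genes held more than 1 distal intronic narrow peak. Of the 266 distal intronic peaks, 3 lay in *Pde4d*, which encodes a cAMP phosphodiesterase, and 3 in *Tanc1*, a scaffold protein of synapses. The other 6 genes with more than 1 held 2 each. The 3 peaks in *Pde4d* were 201, 244 and 269 bp wide and at most 8.61% masked. Those in *Tanc1* were 288, 294 and 290 bp wide, and the nearest of them was 2371 bp from a wider peak. These genes were picked after the counts had been seen, and neither gene length nor the number of wider peaks in them was taken into account.

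The narrowest peak of all, 113 bp, was intergenic at chr4:115148780-115148892, 14555 bp from the TSS of *Cyp4x1*, masked at every base and in a family of 13 members. The next were 120 bp in an intron of *Kcnn2*, 121 bp near *Hhex*, 122 bp near *Pcdh7* and 124 bp near *Nkain3*. Only the one near *Hhex*, a homeobox gene, at chr19:37460737-37460857, had no masked base. At the limit, the first 5 peaks of 320 bp by chromosome and start were those of *Lrp1*, *Top1*, which encodes topoisomerase I, and *Cpt2*, a carnitine palmitoyltransferase of mitochondria, all within 1 kb of the TSS, an exonic one in *Scai* and an intergenic one near *Pdzrn3*. The first 5 that were 1 bp wider, just outside, were an intergenic one near *Prdm14*, one 1015 bp from the TSS of *Zbtb2*, promoter peaks of *Tbpl1* and *Rassf3*, and one in an intron of *Glo1*.

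Short motifs were counted on both strands in windows of 300 bp around the midpoints, which for most narrow peaks extend past the interval. The windows of the peaks were compared with 32851 promoter windows of the same length (RefSeq, GRCm38.p6). The YY1 letters AAGATGGCG were found in 16 narrow peaks (1.60%; 1.34% of all peaks; 1.40% of promoter windows). All 16 were distal (more than 3 kb from a TSS), as were 698 of all 997 narrow peaks. At least 50% of the bases were masked in all 16, against 233 of the 997, and 15 were in a family. The AP-1 letters TGACTCA were found in 48 (4.81%; 4.43% of all peaks; 5.20% of promoter windows), and 32 of these were distal. The octamer ATTTGCAT, bound by POU5F1 and other POU factors, was found in 15 (1.5%; 1.09%; 1.74%), 13 of them distal. The ESRRB letters TCAAGGTCA were found in 9 (0.903%; 0.756%; 0.423%), 8 of them distal. By width, YY1 letters were in 2.80% of peaks up to 240 bp and 0.938% of narrow ones over 240 bp. They were in 0.650% of wider peaks of up to 640 bp and 1.53% over 640 bp. In the same order, the shares were 3.64%, 5.47%, 4.35% and 4.41% for AP-1. For the octamer they were 1.12%, 1.72%, 1.02% and 1.06%, and for ESRRB 0.560%, 1.09%, 0.488% and 0.824%.

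The other letters searched, each holding a CpG, were rare both in narrow peaks and in the next wider class, up to 640 bp, and no test was made. The SP letters GGGGCGGGG were found in 10 narrow peaks (1.0%), 1.58% of the wider peaks of up to 640 bp, 6.63% of peaks over 640 bp and 11.4% of promoter windows. The ETS letters CCGGAAGT were found in 7 (0.702%), against 0.772%, 3.53% and 3.89% in the same order. The NRF1 letters TGCGCATGC were found in 1 narrow peak (0.100%), against 0.163%, 0.954% and 1.52%. The USF letters CACGTGAC were found in 6 (0.602%), against 0.813%, 1.48% and 2.25%. The CRE letters TGACGTCA were found in 2 (0.201%), against 0.366%, 1.12% and 1.79%. The CTCF letters AGGGGGCGC were found in 2 (0.201%), against 0.203%, 0.680% and 1.25%. A match is a run of letters and no test of binding.

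Some narrow peaks away from protein-coding promoters were near starts of other transcripts. Within 1 kb of such a start were 41, of which 10 were at processed pseudogenes, 9 at lincRNAs and 4 at antisense RNAs. Counting the starts of all annotated genes raised the promoter share of narrow peaks from 21.2% to 25.3% and that of wider peaks from 65.9% to 69.8%, about as many points in both. The distal intergenic share was then 45.9% up to 240 bp and 29.4% in narrow peaks over 240 bp. Their median distances to a start were 9182 and 4601.5 bp.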

How the data were processed

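H3K56ac ChIP-seq and input libraries of V6.5 cells were processed by the authors with Trim Galore, bowtie 1.1.2 (mm10, reads aligning at 1 place), Picard duplicate marking, MACS2 and the ENCODE blacklist, and peaks were merged with GenomicRanges reduce. The deposited file holds merged start and end positions and a constant score of 0; replicates and groups were pooled, no column belongs to 1 library, and read depth is not in the file and was not used here. Positions are printed counted from 1.

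Narrow peaks, gene lists, motifs and tests were chosen with earlier results of these data known. Peaks were compared with GENCODE M21 protein-coding TSS, and base composition, soft-masking and stretches of 75 bases were read from GRCm38. Families were built with blastn 2.17.0 (80% identity, 100 bp, single linkage), and these families and the alternatives without families or repeated stretches were added after the data were seen. Shares were compared by Fisher's exact test and medians by the same test on counts above the joint median, two-sided, with Benjamini-Hochberg adjustment over 16 tests and a threshold of 0.05. Intervals are Wilson intervals for shares, Newcombe intervals for differences and order-statistic intervals for medians, at 95%. A count of 0 was read as allowing 3. Named peaks were the 10 nearest a TSS, the 5 narrowest, the 5 on either side of 320 bp, the 5 farthest from a wider peak, the 5 most masked and the 5 richest in GC, with list genes, *Utrn* and sirtuins; ties went by position, and the most masked are described as a group because 180 shared the value of 100%. Alternatives changed the TSS set, distance and masking limits, windows, width limits, autosomes and near peaks, and their p-values were not adjusted. Python 3.11.15, scipy 1.17.1 and pandas 2.3.3 were used, and the tests were tested on simulated data.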

Additional observations from a re-analysis of the deposited data

How the results depend on the processing

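Each of the 16 results was recomputed under other settings, 134 in all, of which 110 were planned and 24 were added after the families were seen. In 110 the call was as before, in 16 the call was lost and in 8 the direction turned; the differences below are narrower minus wider. Without the sequence families, the differences between peaks up to 240 bp and narrow ones over 240 bp were -4.80 points in promoter share, 1.64 in intergenic share, 196 bp to a TSS, 11664 bp to a wider peak and -0.0721 points on X. Without repeated stretches of 75 bases they were -2.42 points, -0.259, -415 bp, 7401.5 bp and -0.632 points, and the GC difference was -0.968 points; the share on X of narrow against wider peaks was then 0.400 points higher. These 2 settings leave fewer peaks. A promoter limit of 500 bp gave -3.92 points. The GC difference was -1.47 in distal peaks, 0.00608 in promoter peaks and -0.440 with a division at 200 bp, and, for narrow against wider peaks, -0.344 in promoter peaks. In promoter peaks the gap to a wider peak differed by 2498 bp between peaks up to 240 bp and narrow ones over 240 bp, and the call was lost. A division at 280 bp gave 1.94 points for the intronic share and -1.10 on X. With 1 peak per 100 kb, X differed by -0.0567 points within narrow peaks and by 0.672 against wider ones, where it differed by 0.948 for peaks up to 240 bp and by 0.478 against wider peaks of up to 640 bp. The cause was not tested.

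No paired analysis was possible because the positions were merged over libraries, and leaving out a replicate was not run for the same reason. The positions carry no counts, so limits set by depth are not given.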
